A study of Mus musculus with 3 samples.

Results

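The miR-221 and miR-222 pair was examined as its 4 mature arms, mmu-miR-221-3p, mmu-miR-221-5p, mmu-miR-222-3p and mmu-miR-222-5p, which were taken by name from the 1138 mature mouse miRNAs listed in each library. All 4 arms were listed and had at least 2 reads in every library. The RNA was from tibialis anterior (TA) muscles, which flex the foot, of wild type C57BL/6 mice labelled as 10 weeks old. They were made on day 0 (uninjured muscle) and on days 1 and 3 after injection of CTX (cardiotoxin, from snake venom), which kills myofibers while muscle stem cells survive to rebuild them. The labels describe an injection of CTX, or of saline as a control, and do not say whether the day 0 muscles received saline. Each of the 3 libraries was a pool of 4 samples, and there was 1 library per time point. No spread between mice is therefore known, and a test between libraries compares those libraries and not the conditions. The whole muscle was sequenced, so that more cells of a type and more RNA per cell cannot be told apart.

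miRNAs are small RNAs that guide Argonaute proteins to mRNAs, mainly through pairing of the seed (bases 2 to 8 of the miRNA) with sites in the 3′ untranslated region, and lower the output of those mRNAs. miR-221 and miR-222 are cut from neighbouring hairpins and are known for repressing Cdkn1b, which encodes the cell cycle inhibitor p27, and Kit, a receptor tyrosine kinase. In muscle cells they are known to be higher in dividing myoblasts and to fall as these differentiate into myotubes, and they are also known from endothelial and smooth muscle cells. The label of the pair refers to this myoblast setting, which libraries of whole muscle cannot show for one cell type.

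The mature sequences are shown because the 3p arms carry most of the reads of the pair and share a seed. They were taken from RefSeq on build GRCm38.p6, which is also the build the authors aligned to, and 3 of the 4 arms matched by name. Each is given 5′ to 3′ with the seed in capitals.
miR-221-3p: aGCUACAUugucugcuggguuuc
miR-222-3p: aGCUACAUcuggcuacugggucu
miR-221-5p: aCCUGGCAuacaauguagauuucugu
The 3p arms are identical over their first 8 bases, which include the whole seed, and differ at 12 of 23 positions when they are aligned without gaps from the 5′ end. The arms of miR-221 do not share a seed with each other. Only 1 further mature mouse miRNA in the RefSeq table, miR-1928, has the seed of the 3p arms, and it was not among the miRNAs listed in the libraries.

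Both hairpins lie on the minus strand of chromosome X, Mir221 at chrX:19146294-19146388 (95 bases) and Mir222 at chrX:19146893-19146971 (79 bases), with 504 bases between them. In the GENCODE M21 annotation of GRCm38, no gene other than these overlaps them, and the nearest is the noncoding Gm14636, 10.0 kb away on the same strand. No other annotated miRNA hairpin lies within 100 kb. The hairpins are shown with the mature arms in the table in capitals.
Mir221: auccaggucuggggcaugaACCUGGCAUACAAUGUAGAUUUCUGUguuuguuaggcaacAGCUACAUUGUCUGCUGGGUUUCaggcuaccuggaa
Mir222: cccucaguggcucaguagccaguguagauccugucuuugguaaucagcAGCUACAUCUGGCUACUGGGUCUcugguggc

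The letters complementary to the shared seed, ATGTAGC, were searched on the mRNA strand of the longest annotated 3′ untranslated region of Cdkn1b (3439 bases). They occurred 1 time, within the stretch of 23 bases at chr6:134924416-134924438 on the plus strand of GRCm38, which is shown with the match in capitals.
Cdkn1b: ctctaaaagcattggATGTAGCa
Of 974 genes whose longest 3′ untranslated region is within 10% of this length, 227 (23.3%) held these letters at least 1 time. The match is a description of the sequence. mRNA was not measured in these libraries.

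The 3p arms, which are the more abundant arms of their hairpins, were both higher on days 1 and 3, and by library totals miR-222-3p went on rising from day 1 to day 3. miR-222-3p had 740 reads in uninjured muscle, 7101 reads at day 1 and 16535 reads at day 3. As CPM (reads of the miRNA per 1000000 reads of its library), this is 87.0 in uninjured muscle (95% Wilson interval 80.9 to 93.5), then 1106 (1080 to 1132) and 1688 (1663 to 1714). The level thus went up at each step, and none of the 3 intervals overlapped. By abundance among all listed miRNAs, miR-222-3p moved up from rank 128 in uninjured muscle to ranks 66 and 56.

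miR-221-3p was counted with 419, 3449 and 5324 reads on days 0, 1 and 3. In that order its level was 49.3 CPM (44.8 to 54.2), 537.1 CPM (519.5 to 555.4) and 543.5 CPM (529.1 to 558.3). The intervals of days 1 and 3 overlapped, and both lay above that of day 0. Its rank by abundance was 155, 89 and 85.

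miR-221-5p, the minor arm of the miR-221 hairpin, was counted with 41, 553 and 789 reads, or 4.82 CPM (3.55 to 6.54), 86.1 CPM (79.2 to 93.6) and 80.6 CPM (75.1 to 86.4). Like its partner arm, it was higher in both injured libraries than on day 0, and the intervals of days 1 and 3 overlapped. miR-222-5p was near the limit of detection, with 2, 12 and 6 reads. Its level was 0.235 CPM (0.0645 to 0.857), 1.87 CPM (1.07 to 3.27) and 0.613 CPM (0.281 to 1.34), and 3 reads, taken as the detection limit, corresponded to 0.353, 0.467 and 0.306 CPM. The interval of day 1 did not overlap that of day 0, and that of day 3 overlapped both. In these libraries the order of the arms was the same on each day, miR-222-3p above miR-221-3p, miR-221-5p and miR-222-5p, and the intervals of neighbours in this order did not overlap on any day. RNAs of different sequence can be captured with different efficiency by adapter ligation, so the order is one of reads. The reads of all 4 arms together were 0.0141% of the day 0 library, 0.173% of the day 1 library and 0.231% of the day 3 library, and miR-222-3p made up 61.6%, 63.9% and 73.0% of these.

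**Figure D1:**
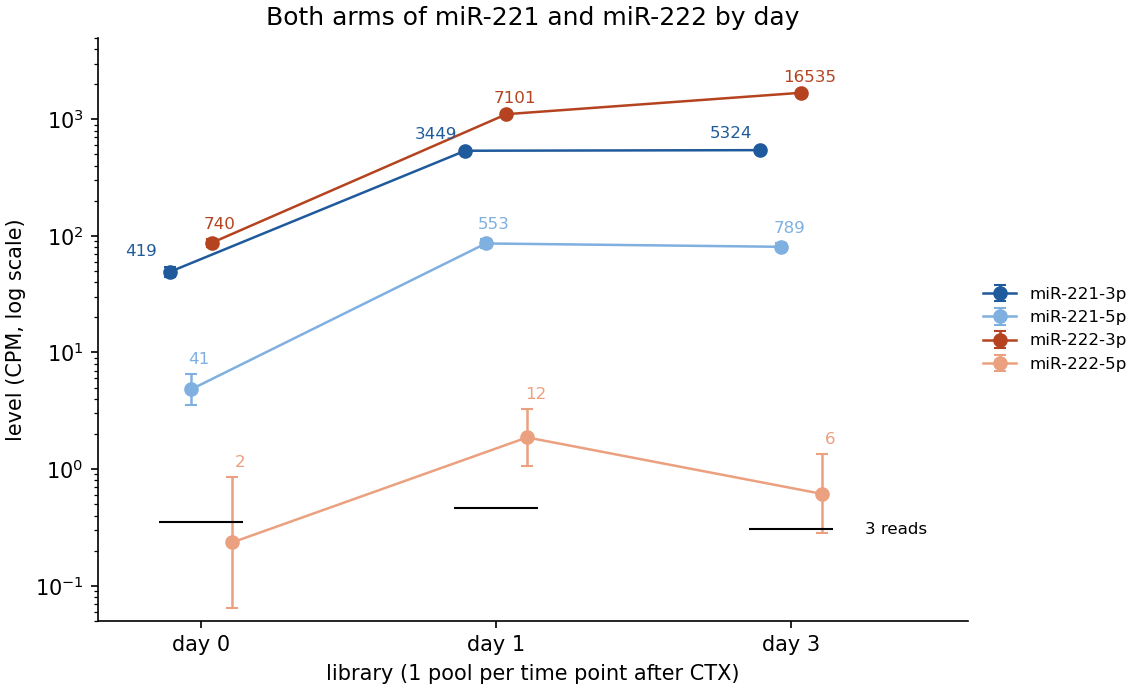
Level in CPM (log scale) of each arm of miR-221 and miR-222 in the libraries of days 0, 1 and 3, with 95% Wilson intervals, the read count beside each point and a black bar at 3 reads. miR-222-3p went up from 740 to 7101 and 16535 reads, miR-221-3p and miR-221-5p held nearly the same CPM on days 1 and 3, and miR-222-5p stayed at 12 reads or fewer.

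Each injured library was compared with that of day 0 by Fisher's exact test (two-sided), with the reads of a miRNA set against the rest of its library. The p-values were adjusted by the Benjamini-Hochberg method over every miRNA that had a read in at least 1 library of the comparison. A miRNA was called when its level changed at least 2-fold with an adjusted p of at most 0.001, the thresholds in the study's methods. On day 1, 3 of the 4 arms were called higher and none lower, where 25.1% of 998 tested miRNAs were called higher and 4.31% lower. On day 3 the same 3 arms were called higher, where 26.1% of 1056 tested miRNAs were called higher and 4.36% lower. These background shares moved with the scaling. With median-of-ratios factors, 118 miRNAs were called higher and 121 lower on day 1 in place of 250 and 43, and 148 and 124 on day 3 in place of 276 and 46.

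On day 1, the log2 fold change was 3.67 for miR-222-3p (95% Wald interval 3.56 to 3.78) and 3.45 for miR-221-3p (3.30 to 3.59), or 12.7-fold and 10.9-fold. The adjusted p of both was below the smallest number the software can store. For miR-221-5p it was 4.16 (3.70 to 4.62; adjusted p = 8.4e-149 by Fisher's exact test), a 17.9-fold change. miR-222-5p was not called, with a 7.95-fold change in level whose exact interval ran from 1.77 to 73.1 (adjusted p = 0.00437 by Fisher's exact test). Over the 393 miRNAs counted 10 times or more in each of the 2 libraries, the log2 fold change had a median of 0.90. Ordered by size of rise, miR-222-3p was at place 25 and miR-221-3p at place 31 of these.

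On day 3, the log2 fold change against day 0 was 4.28 for miR-222-3p (4.17 to 4.38), 19.4-fold, and 3.46 for miR-221-3p (3.32 to 3.61), 11.0-fold. miR-221-5p was 16.7-fold higher, with a log2 fold change of 4.06 (3.61 to 4.52; adjusted p = 1.0e-157 by Fisher's exact test). miR-222-5p was not called, with a ratio of 2.61 and an exact interval of 0.466 to 26.4. Over the 407 miRNAs with 10 reads or more in each of these libraries the median was 0.93, and by size of rise miR-222-3p was at place 24 and miR-221-3p at place 45. The comparisons of days 1 and 3 share the day 0 library, so that a chance low count on day 0 would raise both.

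**Figure D2:**
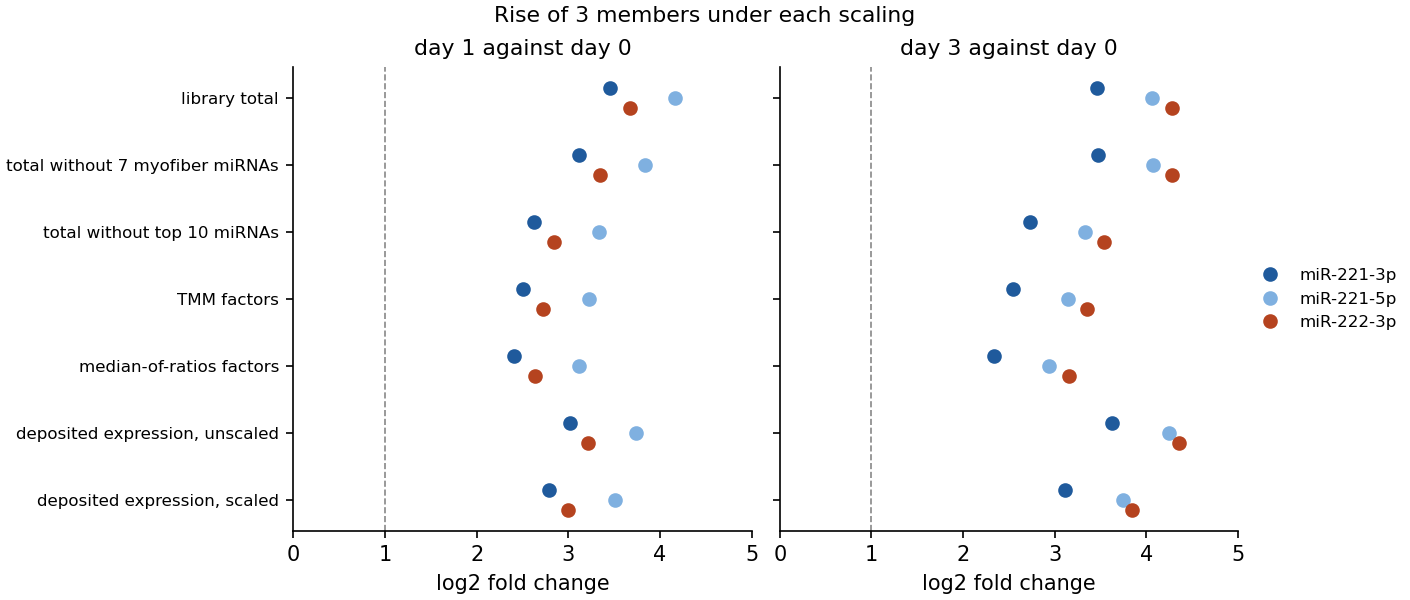
Log2 fold change of miR-221-3p, miR-221-5p and miR-222-3p on day 1 and day 3 against day 0, with the reads scaled to library totals, or under 6 other settings that include the deposited expression values (dashed line, 2-fold). Each point lies beyond 2-fold, the lowest being 2.41 on day 1 and 2.34 on day 3, both for miR-221-3p with median-of-ratios factors.

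The rises depended on the scaling in size. Another scaling shifts every miRNA in a comparison alike. The log2 shift was -0.94 for day 1 and -0.93 for day 3 under TMM factors, and -1.04 and -1.12 under median-of-ratios factors. After this shift the rise of miR-222-3p was 2.63 on day 1 and 3.16 on day 3 with median-of-ratios factors. The 7 myofiber miRNAs, among them miR-1a-3p, took 27.4%, 9.17% and 27.8% of the libraries of days 0, 1 and 3. On day 3 most of this was miR-206-3p, at 180001 of 277532 CPM, and miR-1a-3p was at 88096 CPM against 233587 CPM on day 0. With these left out of the totals, a setting chosen after the data were seen, the log2 fold change on days 1 and 3 was 3.34 and 4.28 for miR-222-3p and 3.12 and 3.47 for miR-221-3p.

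Between days 1 and 3 the arms differed in course. miR-222-3p was 1.53-fold higher on day 3 (log2 fold change 0.61, 0.57 to 0.65; adjusted p = 2.8e-204 by Fisher's exact test), a difference beyond counting error and below the 2-fold threshold. With a coefficient of variation between pooled libraries set to 0.2 or 0.4 in edgeR's exact test, its adjusted p was 0.45 or 1.0. Its log2 fold change was 0.53 with median-of-ratios factors, 0.63 with TMM factors and 0.71 with totals less the 10 most abundant miRNAs. In settings added after the data were seen, it was 0.94 with totals that left out the myofiber miRNAs and 0.85 with scaled expression values. With expression values as deposited, which are not scaled for depth, it was 1.14, past 2-fold. For miR-221-3p the log2 fold change was 0.02 (-0.04 to 0.08), and for miR-221-5p it was -0.10 (-0.25 to 0.06). None of the 4 arms was called between these days, where 9.60% of 1104 tested miRNAs were called higher and 7.16% lower. miR-222-5p had a ratio of 0.328 with an exact interval of 0.101 to 0.944 (adjusted p = 0.0737 by Fisher's exact test). The flat course of miR-221-3p and miR-221-5p depended on the setting. For miR-221-3p the log2 fold change was -0.06 with median-of-ratios factors, 0.35 with totals that left out the myofiber miRNAs, 0.32 with scaled expression values and 0.61 with expression values as deposited. The last value is not scaled for depth, so it also holds the difference in depth between the libraries. For miR-221-5p it was 0.23 without the myofiber miRNAs.

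The ratio of the 3p arms within a library does not depend on how libraries are scaled. There were 0.566 miR-221-3p reads for each miR-222-3p read in uninjured muscle (95% Wald interval 0.502 to 0.638), 0.486 at day 1 (0.466 to 0.506) and 0.322 at day 3 (0.312 to 0.332). Read the other way, miR-222-3p had 1.77, 2.06 and 3.11 times the reads of miR-221-3p. The log2 ratio of miR-221-3p to miR-222-3p changed by -0.22 from day 0 to day 1 (-0.40 to -0.04) and by -0.59 from day 1 to day 3 (-0.67 to -0.52). Both intervals leave out 0, the first narrowly, and they cover counting error only. With 1 library per time point, a change of this ratio and a difference between library preparations cannot be told apart. In the deposited expression values, a second column that lies below the read count for abundant miRNAs, the ratio was 0.565, 0.493 and 0.341. Between the 5p arms the log2 ratio was 4.36 (2.31 to 6.41), 5.53 (4.70 to 6.35) and 7.04 (5.88 to 8.20). These intervals are wide because of the few reads of miR-222-5p.

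**Figure D3:**
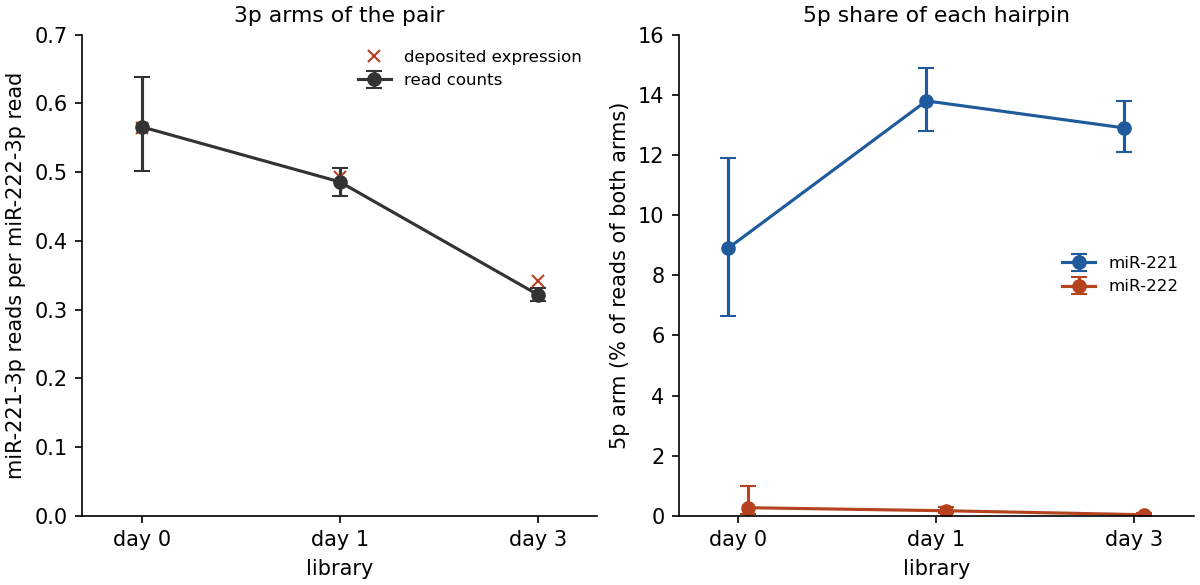
Left, miR-221-3p reads per miR-222-3p read in each library with 95% Wald intervals, and the same ratio in the deposited expression values (crosses). Right, the 5p arm as a percent of the reads of both arms of each hairpin with 95% Wilson intervals; the ratio of the 3p arms fell from 0.566 to 0.322, and the 5p share was 8.91% to 13.8% for miR-221 and at most 0.270% for miR-222.

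The hairpins also differed in how their reads were divided between arms. For miR-221, the 5p arm accounted for 8.91% of the hairpin's reads in uninjured muscle (41 of 460, Wilson interval 6.64 to 11.9), then for 13.8% (553 of 4002, 12.8 to 14.9) and 12.9% (789 of 6113, 12.1 to 13.8). The share was higher in both injured libraries than on day 0, and the interval of day 0 did not overlap the others. For miR-222, it was 0.270% (2 of 742; 0.0739 to 0.977), 0.169% (12 of 7113; 0.0965 to 0.295) and 0.0363% (6 of 16541; 0.0166 to 0.0791). The interval of day 3 lay below that of day 1.

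Changes in the 5p to 3p odds were tested with Fisher's exact test over all hairpins with both arms listed and at least 10 reads over both arms in each library, with the same thresholds. For miR-221 the log2 change of the odds was 0.71 on day 1 (0.23 to 1.19; adjusted p = 0.0107 by Fisher's exact test) and 0.60 on day 3 (0.12 to 1.07; adjusted p = 0.0327 by Fisher's exact test), and neither was called. In these comparisons 13.8% and 21.6% of the tested hairpins were called. For miR-222 the log2 change of the odds was -0.68 on day 1 (-2.84 to 1.48), -2.90 on day 3 (-5.21 to -0.59; adjusted p = 0.0913 by Fisher's exact test) and -2.22 between days 1 and 3 (-3.63 to -0.81; adjusted p = 0.00548 by Fisher's exact test). None of these was called, where 16.5% of 248 hairpins were called between days 1 and 3.

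The miRNAs with the pattern most like each 3p arm were found among 214 other miRNAs with at least 100 reads in each of the 3 libraries, by the distance between their pairs of log2 fold changes (days 1 and 3 against day 0). For miR-221-3p these were miR-15b-5p (distance 0.40), miR-467a-5p (0.49), miR-214-3p (0.63), miR-17-5p (0.63) and miR-500-3p (0.70). miR-15b-5p, of the cell cycle family of miR-15 and miR-16, was at 156.3, 1581 and 1317 CPM on days 0, 1 and 3. miR-214-3p, known from stromal cells, was at 69.7, 566.3 and 555.6 CPM, and like miR-221-3p it held its level from day 1 to day 3.

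For miR-222-3p the nearest was miR-7a-5p (distance 0.56), followed by miR-467a-5p (1.12), miR-15b-5p (1.25), miR-17-5p (1.28) and miR-20a-5p (1.29). miR-7a-5p was at 54.4, 812.8 and 1500 CPM, so it rose at each step as miR-222-3p did. The arms of the pair were left out of this ranking. The distance between miR-221-3p and miR-222-3p themselves was 0.84, so that for miR-222-3p only miR-7a-5p was nearer than miR-221-3p, and for miR-221-3p all 5 miRNAs named above were nearer than miR-222-3p. The likeness rests on 3 libraries.

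**Figure D4:**
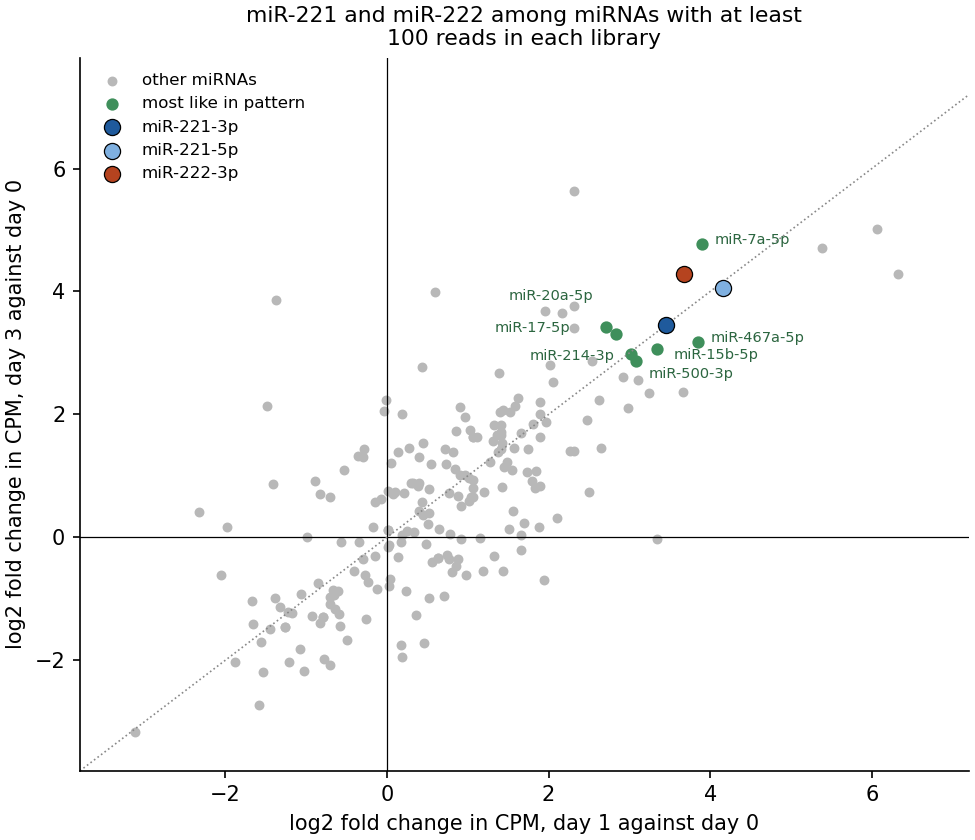
Log2 fold change in CPM on day 1 (horizontal) and day 3 (vertical) against the shared day 0 library for miRNAs with at least 100 reads in each library, with 3 arms of the pair (miR-221-5p had 41 reads on day 0) and the miRNAs most like the 3p arms in colour. miR-221-3p, at 3.45 and 3.46, lies on the dotted line of equal change, and miR-222-3p, at 3.67 and 4.28, lies above it beside miR-7a-5p.

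A list of 16 further miRNAs was drawn up by name under the heading of proliferation, to give the setting of the pair. It was chosen with earlier results of these data known, so its counts and medians describe the list and are not a test. Its members miR-15b-5p, miR-17-5p and miR-20a-5p are also among the miRNAs nearest in pattern above, which were found from the same fold changes. Among them are the miR-17 to miR-92a cluster, the cluster of miR-106b, miR-93 and miR-25, and miR-15b and miR-16. Proliferation itself was not measured, and the heading does not give the role of each member. On day 1, 15 of the 16 were called higher and none lower, where 25.1% of all tested miRNAs were called higher and 4.31% lower. The median log2 fold change of the list was 2.66, against 0.90 for the 393 miRNAs above, which leave out 1 list member, miR-19a-3p, with 5 reads on day 0. Of those 393, which have at least 10 reads in both libraries, 177 were called higher and 41 lower. On day 3, 14 of the 16 were called higher and none lower, where the shares over all tested miRNAs were 26.1% and 4.36%, and the median was 2.50 against 0.93. Of the 407 miRNAs with at least 10 reads in both of these libraries, 196 were called higher and 44 lower. With median-of-ratios factors, 10 of the 16 were called higher on each day, where 118 of 998 tested miRNAs were called higher on day 1 and 148 of 1056 on day 3. By library totals, miR-27b-3p was not called on either day (0.52 and 0.39), and miR-27a-3p was not called on day 3 (0.42). miR-221-3p and miR-222-3p both lay above the median of the list on both days.

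Within the list, the course from day 1 to day 3 varied. miR-18a-5p, of the miR-17 to miR-92a cluster, went from 3.76 to 96.6 and 226.1 CPM, and miR-21a-5p, known to be induced by injury, from 3865 to 19120 and 52565 CPM. miR-31-5p was at 5.29, 19.8 and 766.0 CPM. These 3 were called higher on day 3 than on day 1, where 9.60% of all tested miRNAs were called higher and 7.16% lower. miR-27a-3p was called lower on day 3 than on day 1, at 13377 and 6055 CPM. The other 12 members were not called between these days, and their log2 fold changes ran from -0.87 for miR-25-3p to 0.71 for miR-20a-5p.

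**Figure D5:**
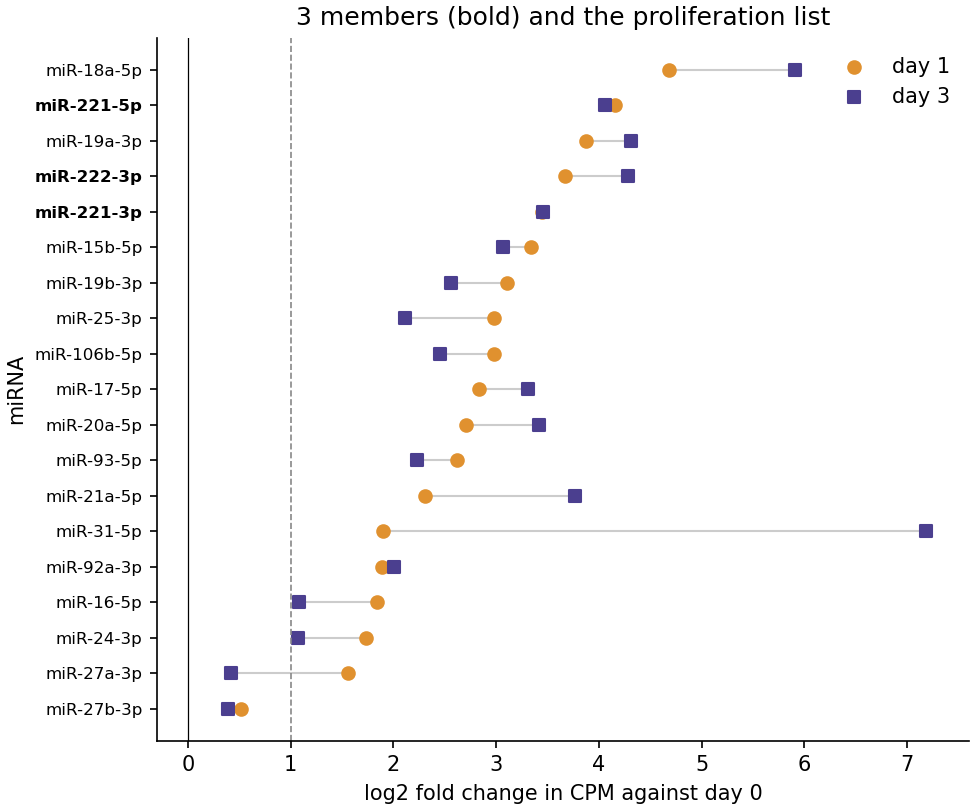
Log2 fold change in CPM against day 0 on day 1 (circles) and day 3 (squares) for 3 arms of the pair (bold) and 16 miRNAs listed under proliferation, ordered by day 1 (dashed line, 2-fold). By library totals all but miR-27b-3p lie beyond 2-fold on day 1, and miR-31-5p, at 1.90 and 7.18, has the widest gap between days in the plot.

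miRNAs that mark other cell types also moved between these libraries. Their lists, too, were chosen with earlier results of these data known. The counts of each list stand beside 25.1% of all tested miRNAs called higher and 4.31% lower on day 1, and 26.1% and 4.36% on day 3. They are by library totals, and with median-of-ratios factors, a setting added for these lists after the data were seen, most of the smaller rises were not called. Under those factors, 118 of 998 tested miRNAs were called higher and 121 lower on day 1. On day 3, 148 of 1056 were called higher and 124 lower. Of 6 myeloid miRNAs, 5 were called higher on both days under either scaling, and their summed level was 621.9, 12721 and 6072 CPM. miR-155-5p was the one not called, and no myeloid marker was at 0. Between days 1 and 3, where 9.60% of all tested miRNAs were called higher and 7.16% lower, the members differed. miR-223-3p, which held most of the sum on day 1, was called lower on day 3, at 7815 and 1896 CPM, as was miR-142a-3p. The other 4 were not called, among them miR-146a-5p at 2000 and 2524 CPM (log2 fold change 0.34, against 0.61 for miR-222-3p) and miR-155-5p at 225.0 and 216.6 CPM. Both endothelial miRNAs, miR-126a-3p and miR-126a-5p, were called higher on day 1 and not on day 3, with a summed level of 59427, 132923 and 58732 CPM. With median-of-ratios factors neither was called on day 1. Both were called lower on day 3 under these factors, at log2 fold changes of -1.13 and -1.32, where 124 of 1056 tested miRNAs were called lower. Of 2 smooth muscle miRNAs, miR-145a-5p was called higher on day 1 and none on day 3, and their sum was 34909, 63760 and 25342 CPM. With median-of-ratios factors neither was called on day 1 and both were called lower on day 3. The log2 change of each sum on day 3, by library totals and with median-of-ratios factors, was 3.29 and 2.17 for the myeloid list, -0.02 and -1.14 for the endothelial list and -0.46 and -1.58 for the smooth muscle list.

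The 3 stromal miRNAs summed to 2020, 3692 and 6244 CPM, with 2 called higher on day 1 and all 3 on day 3. With median-of-ratios factors, miR-214-3p was the only one called on each day, and the log2 change of the sum turned from 0.87 to -0.17 on day 1 and was 0.51 in place of 1.63 on day 3. The 2 erythroid miRNAs, miR-451a and miR-144-3p, were called higher on day 1 and not on day 3, with a sum of 7142, 25326 and 12560 CPM, and neither was called on day 1 with median-of-ratios factors. Of the 7 myofiber miRNAs, 5 were called lower on day 1, where 43 of 998 tested miRNAs were called lower. With median-of-ratios factors 6 of the 7 were called lower, where 121 of 998 were. On day 3, 4 of the 7 were called lower and 1 higher under either scaling, where 46 and 124 of 1056 tested miRNAs were called lower. The 1 called higher was miR-206-3p, which is induced in new myofibers and went from 12384 to 4781 and 180001 CPM. The defining muscle miRNA miR-1a-3p was present at 233587, 73841 and 88096 CPM, so that the labelled muscle tissue had its marker in each library. The part that these cell types had in the rise of miR-221 and miR-222 was not tested.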

How the data were processed

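Small RNAs of 18 to 30 nucleotides from 3 libraries (1 pool of 4 samples per time point) were sequenced at BGI on the BGISEQ platform. The authors aligned the reads to GRCm38.p6 and deposited a raw read count for each of 1138 mature miRNAs, without normalization. The submitters' processing notes name HISAT and Bowtie2. Per the file headers the authors also deposited an expression column, treated here as a score because its whole numbers never exceed the read count. How it was made is not given in the sources used here.

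Totals were 8507580 (day 0), 6421056 (day 1) and 9795076 (day 3) reads. Reads were divided by these totals. Fisher's exact test was used with 1 library per group, since no model with replicates can be fitted. Intervals (95%) and the limit of 3 reads cover counting error only, as PCR copies are not independent molecules. Alternatives used edgeR TMM factors, DESeq2 size factors, totals without the 10 most abundant miRNAs (each with an exact binomial test), the expression column, a pseudocount of 1 CPM, subsampling to 6421056 reads, the exact test of edgeR at a coefficient of variation set to 0.2 or 0.4, and a 4-fold threshold. The miRNAs named were the 4 arms, the 5 nearest in pattern to each 3p arm, miRNAs with the same seed or within 100 kb, and the lists described. Members and lists were chosen with earlier results of these data known. The factors, and the test at a set coefficient of variation, came from edgeR 4.0.16 and DESeq2 1.42.0 in R 4.3.3. The other values came from scipy 1.17.1, numpy 2.4.6 and pandas 2.3.3 in Python 3.11.15, and plots were drawn with matplotlib 3.10.9.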

Additional observations from a re-analysis of the deposited data

How the results depend on the processing

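The rises of miR-221-3p, miR-221-5p and miR-222-3p kept their direction under all alternatives. With an assumed coefficient of variation of 0.4 between pooled libraries, the log2 fold changes of 3.45 for miR-221-3p and 3.67 for miR-222-3p on day 1 and of 3.46 for miR-221-3p on day 3 no longer passed the adjusted p (0.0037, 0.0021 and 0.0024 in edgeR's exact test). The other calls of these arms against day 0 passed under every alternative. miR-222-5p was not called under any alternative. For the expression column, scaled or not, and for the pseudocount, only the fold change was recomputed and the adjusted p of the read counts was kept. In those settings miR-222-5p could therefore not have been called, and the adjusted p of the other arms could not have failed. Between days 1 and 3, the log2 fold change of miR-221-3p was -0.06 with median-of-ratios factors, and up to 0.61 with the deposited expression. That of miR-221-5p was 0.52 with the deposited expression, and 0.23 both with the expression scaled to its total and without the myofiber miRNAs, both added after the data were seen. That of miR-222-3p was 1.14 with the unscaled expression, past 2-fold. The values of 0.61, 0.52 and 1.14 are from expression that was not divided by library totals, so all of them also hold the difference in depth between the libraries. The log2 ratio of miR-221-3p to miR-222-3p on day 3 was -1.55 in the expression. The causes of the other shifts were not tested.

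Numbers of miRNAs called moved more. Higher on day 1 were 129 (TMM), 118 (median-of-ratios), 145 (totals less the 10 most abundant miRNAs) and 551 by fold alone. In the same order, lower on day 1 were 107, 121, 100 and 165, and 9 at a 4-fold threshold. Higher on day 3 were 165 (TMM), 148 (median-of-ratios) and 630 by fold alone. Lower on day 3 were 109, 124, 94 and 157, and 14 at a 4-fold threshold. Between days 1 and 3, 63 were higher and 29 lower at a 4-fold threshold, and 360 and 271 by fold alone.

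No paired analysis was possible because each time point has 1 library. No replicate could be left out for the same reason. Depth limited miR-222-5p, with 2 to 12 reads, and the day 0 value of miR-221-5p, with 41.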

Other observations

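The change in the ratio of miR-221-3p to miR-222-3p was set beside that of other neighbouring hairpins, in a comparison chosen after the data were seen. There were 29 other pairs of successive hairpins on the same strand, at most 10 kb apart, whose leading arms had at least 100 reads in each library. Hairpins without such an arm were passed over, so others can lie between the members of a pair. Some pairs share a hairpin. From day 0 to day 1 the absolute change in log2 ratio was 0.22 for miR-221-3p and miR-222-3p and had a median of 0.58 over the 29 pairs (0.02 to 1.51), with 22 pairs larger. From day 0 to day 3 it was 0.81 against a median of 0.87 (0.09 to 4.15), with 16 pairs larger and 13 smaller. On day 3 the change for miR-221-3p and miR-222-3p thus lay near the middle of these pairs.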
